A study of Mus musculus with 11 samples.

Results

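The genes described here encode the subunits of the constitutive proteasome, together with base assembly chaperones that carry Psmd symbols, profiled by microarray in mouse CD8 T cells. Members were the genes Psma1 to Psma7, Psmb1 to Psmb7, Psmc1 to Psmc6 and Psmd1 to Psmd14, each represented by the probe-set row of highest mean among the rows that name 1 gene. Of these 34 genes, 31 have such a row, and all 31 reached the mean log2 signal of 4.33 that every tested gene had to reach. They are 31 of the 15194 genes tested. Psma4, Psma5 and Psmd1 are named only in rows that also name other genes.

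T cell receptor transgenic CD8 T cells that carried the congenic surface marker Thy1.2 were transferred into mice bearing NT2.5 mammary tumors and recovered from those tumors by sorting on Thy1.2. Every host was given cyclophosphamide (100 mg/kg, day 8), then a vaccine of GM-CSF-secreting whole cells (day 9) and then the T cells (day 10), and tumor-borne T cells were collected 5 days after that transfer. The groups differ in galectin-3, a glycan-binding lectin encoded by Lgals3. They are named here by the genotype of the T cells and then of the host. The group WT/WT is wild-type T cells in wild-type hosts (n = 4), WT/KO is wild-type T cells in galectin-3 knockout hosts (n = 3), and KO/KO is knockout T cells in knockout hosts (n = 4). The series describes 4 biological replicates a group, and only 3 WT/KO arrays were among the samples available here. The labels do not say whether an array stands for 1 mouse or for several.

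The proteasome degrades proteins tagged with ubiquitin. Its barrel-shaped core is built of outer alpha rings, which gate the entry, and inner beta rings, which hold the proteolytic sites. A regulatory particle caps the core. Its base contains a ring of ATPases that unfold substrates, and its lid removes the ubiquitin chains. In activated T cells, which divide and make much protein, interferon-induced catalytic subunits can take the place of the constitutive ones, and this immunoproteasome alters which peptides are available to MHC class I molecules.

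Lgals3 had log2 signals of 8.49, 8.15, 8.17 and 8.41 in the WT/WT arrays, 8.35, 8.02 and 8.45 in the WT/KO arrays and 7.39, 7.54, 7.26 and 7.54 in the KO/KO arrays. Every KO/KO array was lower than every array of the T cells labelled wild-type. KO/KO minus WT/WT was -0.87 (SE 0.13; limma adjusted p = 0.103). The KO/KO mean of 7.43 was still above the median of 5.81 over all genes tested. WT/KO minus WT/WT was -0.03 (SE 0.14), and the host genotype was not tested by these values. The mean of 11 tested CD8 T cell markers, of 12 listed, was 9.27 to 9.5 in WT/WT, 9.39 to 9.52 in WT/KO and 9.35 to 9.58 in KO/KO. Relative to WT/WT, 8 of 11 were higher in WT/KO (median 0.09) and 9 of 11 in KO/KO (median 0.06). Their mean deviation from each gene's own mean was lowest in WT/WT 4 (-0.16) and WT/WT 1 (-0.13). Of 17 monocyte and macrophage markers 13 were tested, and their mean was 6.24 to 6.38 in WT/WT, 6.61 to 7.15 in WT/KO and 6.56 to 6.92 in KO/KO. Of these 13 markers, 12 were higher in WT/KO and 12 in KO/KO than in WT/WT, with median differences of 0.64 and 0.54. Neutrophil markers, 8 tested of 11, had a mean of 4.81 to 4.97 in WT/WT, 4.77 to 5.12 in WT/KO and 5.21 to 5.50 in KO/KO. In KO/KO against WT/WT, 3 of these 8 were higher, namely S100a8 by 2.72, S100a9 by 1.10 and Csf3r by 0.67, and 5 were lower, with a median difference of -0.02. NK cell markers, 5 tested of 6, had a mean of 6.66 to 6.95 in WT/WT, 6.96 to 7.32 in WT/KO and 7.10 to 7.38 in KO/KO. Relative to WT/WT, 4 of 5 were higher in WT/KO (median 0.12) and 5 of 5 in KO/KO (median 0.43). Dendritic cell and class II markers, 7 tested of 10, had a mean of 5.88 to 5.95 in WT/WT, 6.04 to 6.15 in WT/KO and 6.06 to 6.30 in KO/KO, with 5 and 4 of 7 higher and a median of 0.12 in both. The macrophage, NK and dendritic means of both knockout-host groups thus lay above all WT/WT arrays, whereas the B cell, tumor epithelium and stroma means overlapped between groups. Of 8 tumor epithelium markers, 5 were lower in WT/KO (median -0.05) and 8 in KO/KO (median -0.16) than in WT/WT. All 5 tested stroma and endothelium markers were lower in both (medians -0.14 and -0.13). Of 3 tested B cell markers, 2 were lower in WT/KO and 3 in KO/KO. The mean deviations of tumor epithelium and stroma markers were highest in WT/WT 4 (0.25 and 0.25) and WT/WT 1 (0.21 and 0.09). Single genes differed within lists. WT/KO minus WT/WT was 1.02 for Tyrobp, 0.44 for Klre1, 0.12 for Fcer1g, 0.12 for Ncr1 and -0.01 for Eomes. KO/KO minus WT/WT was 0.94, 0.81, 0.43, 0.21 and 0.16 in that order. On the dendritic list, WT/KO differences were 0.72 (Cd74), 0.52 (H2-Aa), 0.28 (H2-Ab1), 0.12 (Xcr1), 0.08 (Zbtb46), -0.11 (Flt3) and -0.33 (Cd209a). In KO/KO they were 0.66, 0.51, 0.51, 0.12, -0.01, -0.06 and -0.00 in that order. The part of other cells' RNA in the member values was not tested. In such bulk RNA, fewer cells of a type and less RNA per cell cannot be told apart.

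Most proteasome members had slightly higher signals in T cells from knockout hosts, and no single member passed the test. The comparison of WT/KO with WT/WT asks what the host's galectin-3 changes in wild-type T cells. In it 28 of 31 members (90.3%) were higher, with a median log2 difference of 0.10 and a range from -0.05 to 0.84. Over all genes tested 45.5% were higher and the median was -0.03. Among the 10130 genes of the upper 50% by mean signal (log2 5.3 or more), where all 31 members lie, 55.4% were higher with a median of 0.03. The median signal of the members was 7.7, far above that cut. This background is therefore not matched to the members' signal, and genes of like signal were not compared. By limma, 0 of 31 members passed an adjusted p under 0.05, where 0.0% of all genes did. The lowest adjusted p of a member was 0.637, for Psmd6. At an unadjusted p under 0.05, 2 members were higher and 0 lower, against 3.62% and 3.86% of all genes. The 2 members, Psmd6 and Psmb7, became 1 without WT/WT 1 or without WT/WT 4, and 5 without WT/WT 3. For 3 members, Psmb4, Psmc5 and Psmd2, every WT/KO array was higher than every WT/WT array, while 3.57% of all genes showed this and 5.32% the reverse.

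The comparison of KO/KO with WT/WT, which shares the WT/WT arrays with the first, joins loss of galectin-3 from T cells and hosts. There 26 of 31 members (83.9%) were higher, with a median of 0.12 and a range from -0.08 to 0.78. All genes were higher in 46.7% of cases with a median of -0.02, and the upper 50% by signal in 56.6% with a median of 0.03. Again 0 members passed limma's adjusted p, as did 0.0% of all genes, and the lowest was 0.409, for Psmd6. Unadjusted p-values under 0.05 belonged to 6 members, all higher, namely Psmd6, Psmd5, Psmb6, Psmc5, Psmb7 and Psmd12, where 4.79% of all genes were higher and 3.67% lower at that level. Psmb6 and Psmd6 were the 2 members whose KO/KO arrays all exceeded all WT/WT arrays, against 2.61% of all genes, and 0 members were apart downward, against 2.41%. Without WT/WT 1 the 6 members became 1, and without KO/KO 4 they became 3. Psmb4 and Psmd12 were named after their values were seen.

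Between KO/KO and WT/KO, which compares T cell genotypes in knockout hosts, members were balanced. Of 31 members 16 were higher (51.6%) with a median of 0.00, and over all genes 53.2% were higher with a median of 0.01. Differences ran from -0.33 to 0.23. By limma 0 members passed, as did 0.0% of all genes, and 0 had an unadjusted p under 0.05, against 1.93% of all genes higher and 1.48% lower. No member's arrays were apart, where 2.26% of all genes were apart upward and 1.81% downward. This comparison shares its KO/KO and WT/KO arrays with the other two.

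**Figure D1:**
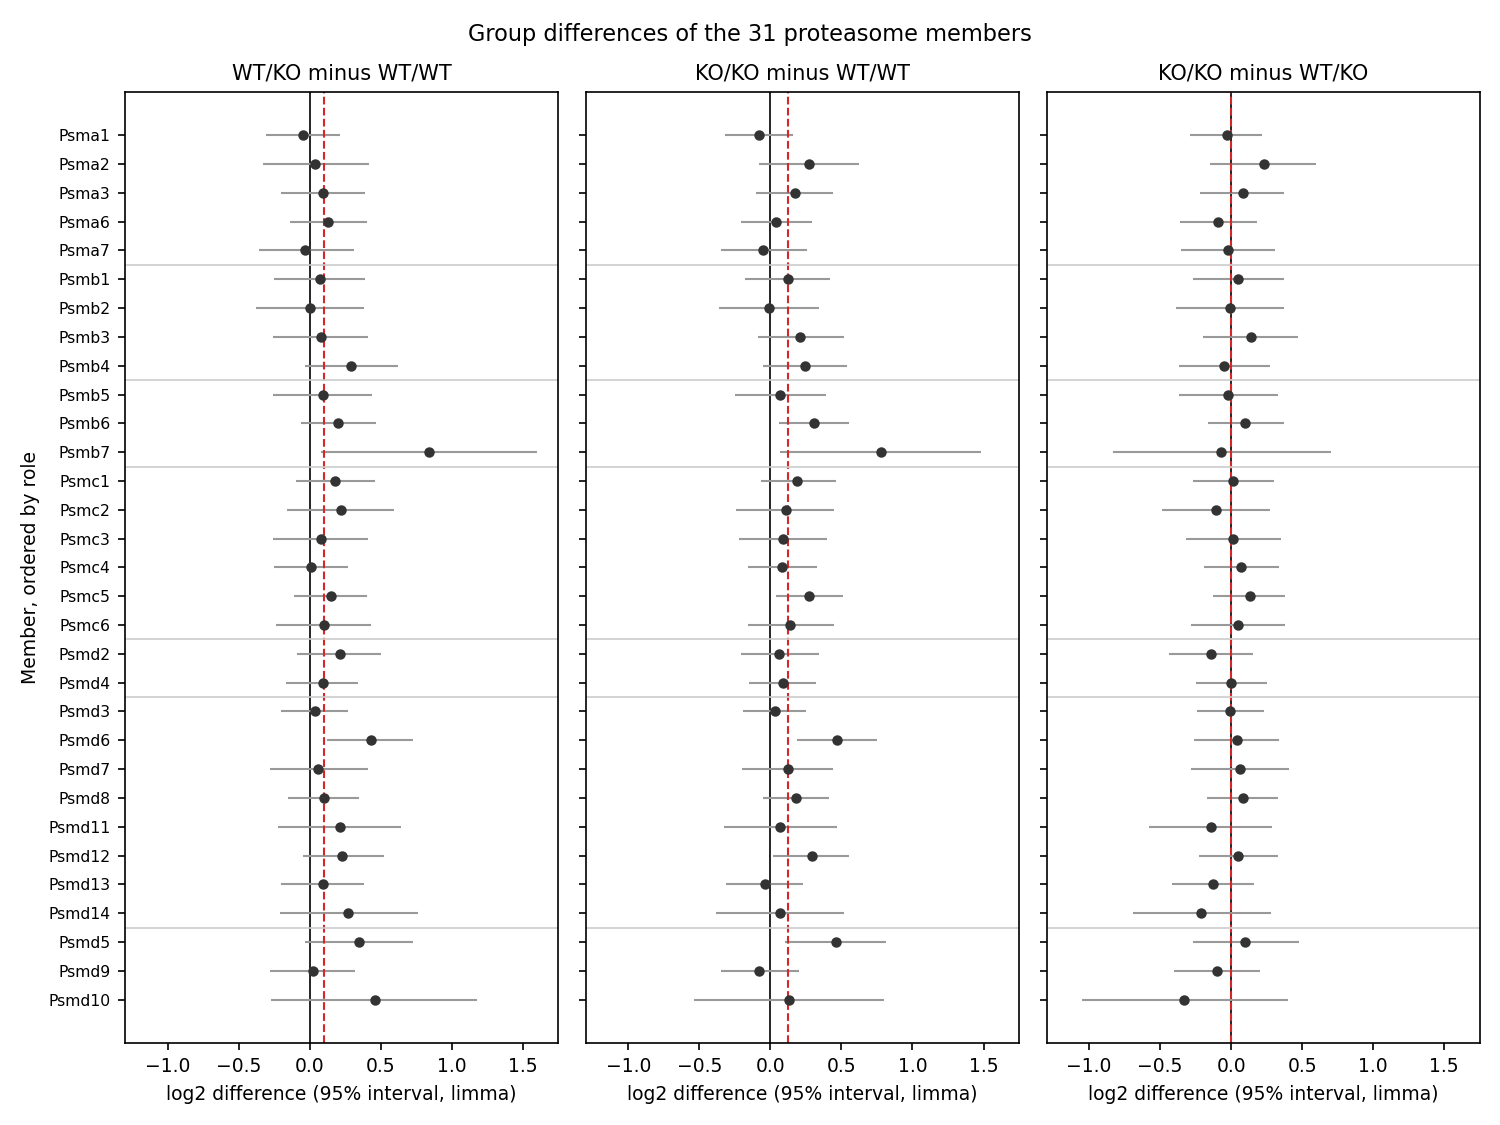
Log2 differences of the 31 members (points) with 95% limma intervals (bars) in the 3 comparisons. Members are ordered by role, the dashed line is the median of the members and the solid line marks 0. Points lie mostly to the right of 0 in the first pair of panels and on both sides in the third.

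The higher signals relative to WT/WT came with low values in arrays WT/WT 1 and WT/WT 4. For each array the median over members of the deviation from the member's own mean was taken. It was -0.20, 0.01, 0.05 and -0.21 in the WT/WT arrays, 0.07, 0.03 and 0.08 in the WT/KO arrays and -0.07, 0.08, -0.00 and 0.16 in the KO/KO arrays. Arrays WT/WT 2 and 3 thus lay within the range of the KO-host arrays, and KO/KO 1 lay below them. WT/WT 1 held the lowest of the 11 values for 11 members and WT/WT 4 for 9, together 20 of 31 (64.5%), against 21.4% of all genes and 28.3% of the upper 50% by signal. These arrays also had the narrowest range of values, their slopes against the mean of all arrays being 0.957 and 0.934, while those of the other 9 arrays were 0.989 to 1.04. Without them 22 of 31 members were higher in WT/KO (median 0.06) and 20 of 31 in KO/KO (median 0.03), and 0 members had an unadjusted p under 0.05 in either. The matching shares of all genes were 47.7% and 49.6%. After quantile normalization the members' counts were 20 and 22, with medians of 0.03 and 0.07, beside 43.9% and 48.3% of all genes. With the value range as a covariate the members' counts were 20 and 19, both with a median of 0.07, beside 50.1% and 51.7% of all genes. After median centring they were 31 and 28, with medians of 0.15 and 0.17, beside 56.1% and 55.9% of all genes. Of the upper 50% by signal, 65.9% and 65.5% were higher after median centring, and 51.1% and 52.7% without WT/WT 1 and 4. These shares were 47.4% and 52.0% after quantile normalization, and 50.3% and 52.1% with the value range as a covariate.

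**Figure D2:**
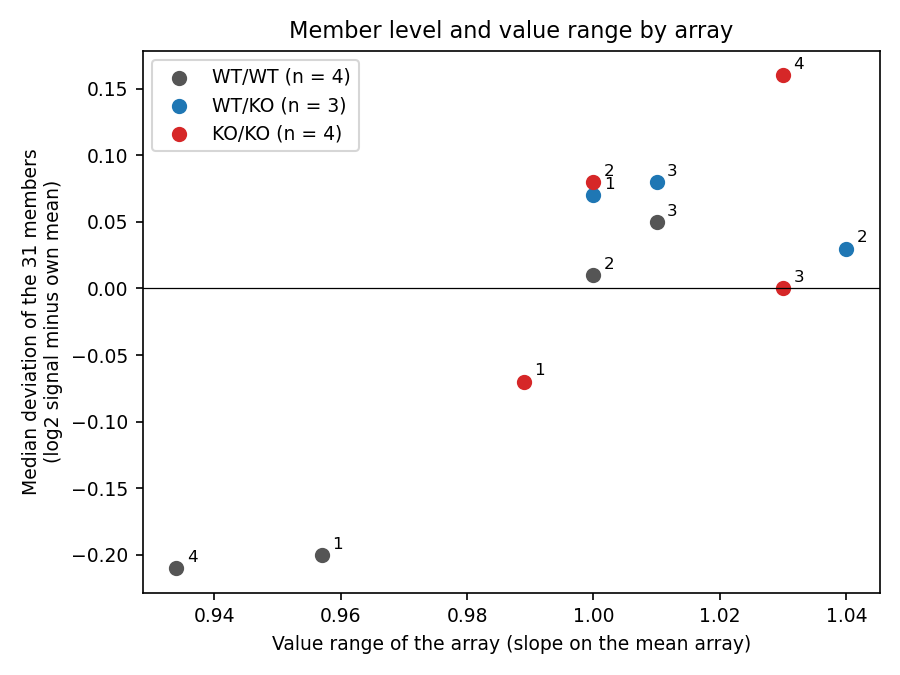
Median deviation of the 31 members from their own means (vertical axis, log2) against the value range of the array (horizontal axis, slope on the mean array), 1 point an array, colored by group and numbered by replicate. WT/WT 1 and WT/WT 4 lie lowest at -0.20 and -0.21 and have the smallest slopes.

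**Figure D3:**
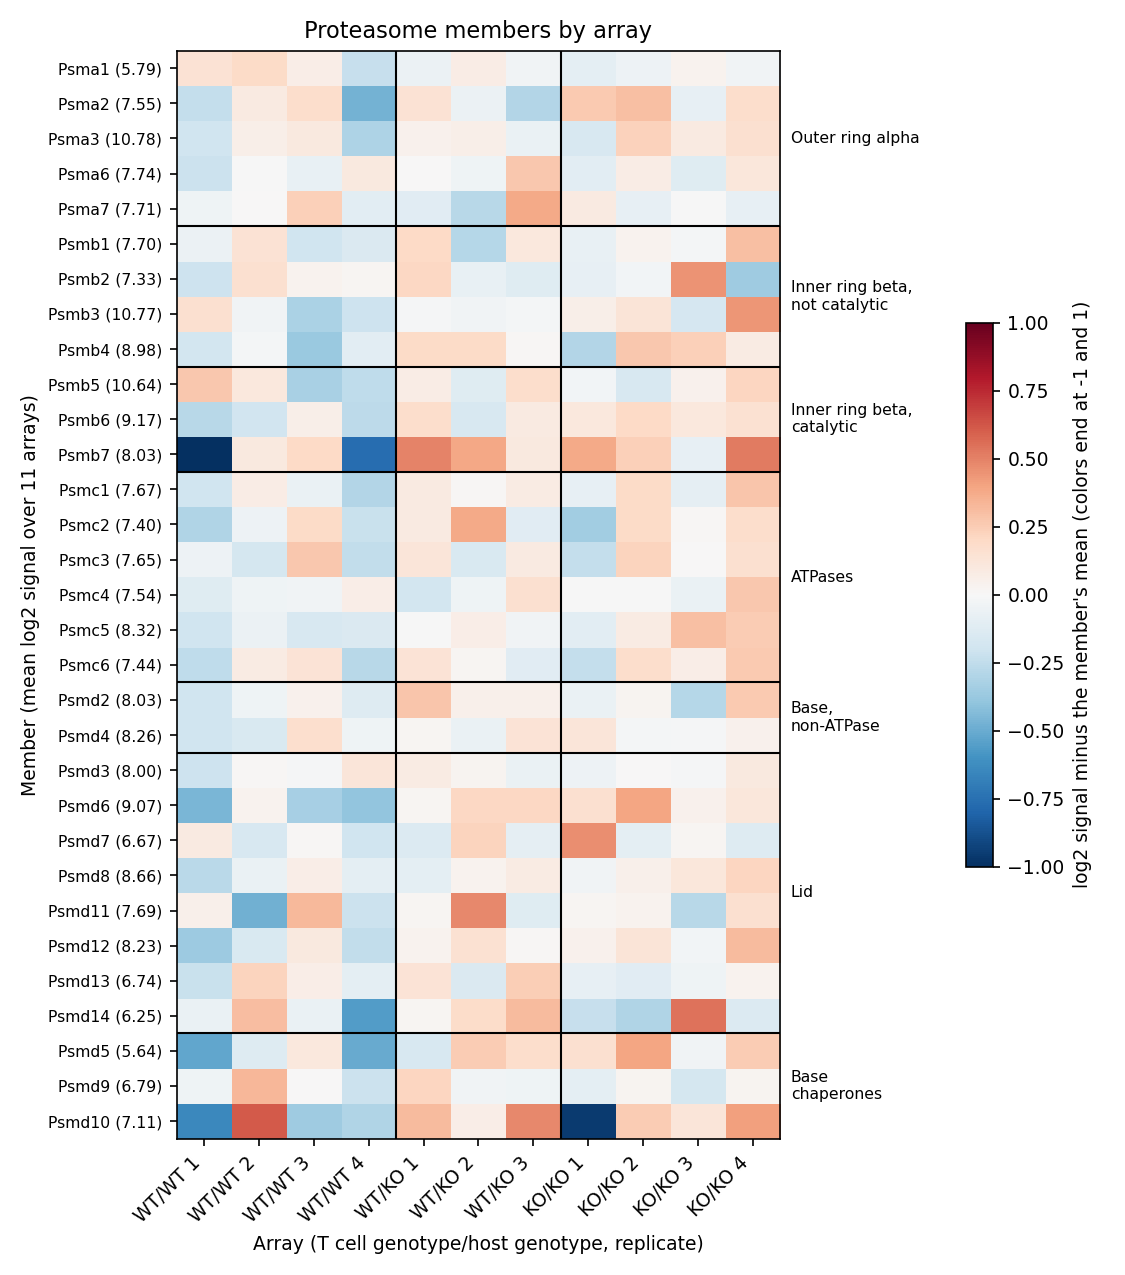
Log2 signal of each member in each array minus that member's mean over the 11 arrays. Rows are members grouped by role with the mean log2 signal in brackets, and columns are arrays grouped by genotype. Blue cells gather in WT/WT 1 and WT/WT 4 and red cells in KO/KO 4, which had the highest value for 8 members.

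The outer alpha rings showed the smallest medians. Of 5 tested alpha genes, 3 were higher in WT/KO and 3 in KO/KO than in WT/WT, each with a median of 0.04. Psma1 read 5.93, 5.98, 5.85 and 5.56 in WT/WT, 5.73, 5.86 and 5.75 in WT/KO and 5.69, 5.74, 5.82 and 5.75 in KO/KO. The WT/WT arrays spanned all the others, and the differences from WT/WT were -0.05 (SE 0.12) and -0.08 (SE 0.11), with limma adjusted p of 0.896 and 0.809. Psma7 read 7.67, 7.72, 7.95 and 7.61 in WT/WT, 7.60, 7.44 and 8.09 in WT/KO and 7.80, 7.63, 7.71 and 7.63 in KO/KO. The 3 groups overlapped, and WT/KO 2 and WT/KO 3 were the lowest and the highest of all arrays. Its differences from WT/WT were -0.03 (SE 0.15) and -0.05 (SE 0.14).

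Psma3, the member of highest mean signal, read 10.58, 10.84, 10.88 and 10.47 in WT/WT, 10.82, 10.84 and 10.71 in WT/KO and 10.62, 11.01, 10.87 and 10.94 in KO/KO. The groups overlapped, with WT/WT 1 and 4 lowest, and the differences from WT/WT were 0.09 (SE 0.14) and 0.17 (SE 0.13). Psma2 had values of 7.31, 7.64, 7.73 and 7.08 in WT/WT, 7.70, 7.49 and 7.26 in WT/KO and 7.81, 7.85, 7.47 and 7.73 in KO/KO. It was the member of lowest p upward between T cell genotypes, at 0.23 (SE 0.17; limma adjusted p = 1.0), with KO/KO 3 below WT/KO 1 and 2. A second probe set of Psma2, of mean log2 signal 7.42, was at 0.08 in that comparison. Relative to WT/WT, the second probe set was at 0.04 in WT/KO and 0.12 in KO/KO, and the row used at 0.04 and 0.27. Psma6, the fifth tested alpha gene, was at 0.13 and 0.04 relative to WT/WT.

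Among the beta genes without a proteolytic site, 3 of 4 were higher in WT/KO (median 0.07) and 3 of 4 in KO/KO (median 0.17). Psmb4 read 8.80, 8.96, 8.61 and 8.88 in WT/WT, 9.17, 9.17 and 8.99 in WT/KO and 8.69, 9.25, 9.22 and 9.06 in KO/KO. WT/KO lay above WT/WT in every array and KO/KO 1 lay among the WT/WT values. The differences from WT/WT were 0.29 (SE 0.15; limma adjusted p = 0.660) and 0.24 (SE 0.14; limma adjusted p = 0.626). Psmb3 read 10.93, 10.73, 10.45 and 10.56 in WT/WT, 10.76, 10.73 and 10.75 in WT/KO and 10.83, 10.90, 10.60 and 11.21 in KO/KO. The WT/KO arrays lay inside the span of both other groups, and KO/KO minus WT/KO was 0.14 (SE 0.15; limma adjusted p = 1.0). Relative to WT/WT, this Psmb3 row was at 0.08 in WT/KO and 0.21 in KO/KO. Further probe sets that name Psmb3 alone were at -0.00 and -0.07 and at -0.15 and -0.06. Psmb2 had group means that nearly coincided, with values of 7.13, 7.49, 7.37 and 7.35 in WT/WT, 7.54, 7.26 and 7.21 in WT/KO and 7.25, 7.31, 7.78 and 6.98 in KO/KO. Its differences from WT/WT were -0.00 (SE 0.17) and -0.01 (SE 0.16), with 95% intervals from -0.38 to 0.38 and from -0.36 to 0.34.

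The catalytic subunits Psmb5, Psmb6 and Psmb7 carry the chymotrypsin-like, caspase-like and trypsin-like activities. All 3 were higher than WT/WT in both comparisons, with medians of 0.20 in WT/KO and 0.31 in KO/KO, and 1 of 3 was higher in KO/KO than in WT/KO. Psmb6 read 8.89, 8.98, 9.23 and 8.91 in WT/WT, 9.35, 9.01 and 9.26 in WT/KO and 9.28, 9.37, 9.28 and 9.32 in KO/KO. The KO/KO arrays lay above every WT/WT array, with WT/WT 3 the nearest, and WT/KO 2 lay among the WT/WT values. KO/KO minus WT/WT was 0.31 (SE 0.11; limma adjusted p = 0.518), and WT/KO minus WT/WT was 0.20 (SE 0.12; limma adjusted p = 0.667). Without WT/WT 1 and 4 these differences were 0.21 and 0.10.

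Psmb7 had the largest differences of the list, 0.84 (SE 0.35; limma adjusted p = 0.654) in WT/KO and 0.78 (SE 0.32; limma adjusted p = 0.568) in KO/KO. Its values were 6.45, 8.13, 8.23 and 7.27 in WT/WT, 8.53, 8.42 and 8.13 in WT/KO and 8.41, 8.27, 7.95 and 8.55 in KO/KO. WT/WT 1 and 4 were far below the 9 others, whereas WT/WT 2 and 3 overlapped both other groups. Without WT/WT 1 and 4 the differences were 0.18 and 0.12. A second probe set of Psmb7 read 7.28, 7.13, 7.06 and 6.94 in WT/WT, 7.40, 7.35 and 7.22 in WT/KO and 7.22, 7.36, 7.10 and 7.20 in KO/KO. There WT/WT 1 was the highest of its group, and the differences were 0.22 and 0.12. Psmb5 read 10.91, 10.75, 10.32 and 10.39 in WT/WT, 10.72, 10.52 and 10.82 in WT/KO and 10.62, 10.48, 10.69 and 10.86 in KO/KO. WT/WT 1 was the highest and WT/WT 3 the lowest of all arrays, and the differences were 0.09 (SE 0.16) and 0.07 (SE 0.15). The second probe set of Psmb5 differed by 0.24 and 0.15.

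**Figure D4:**
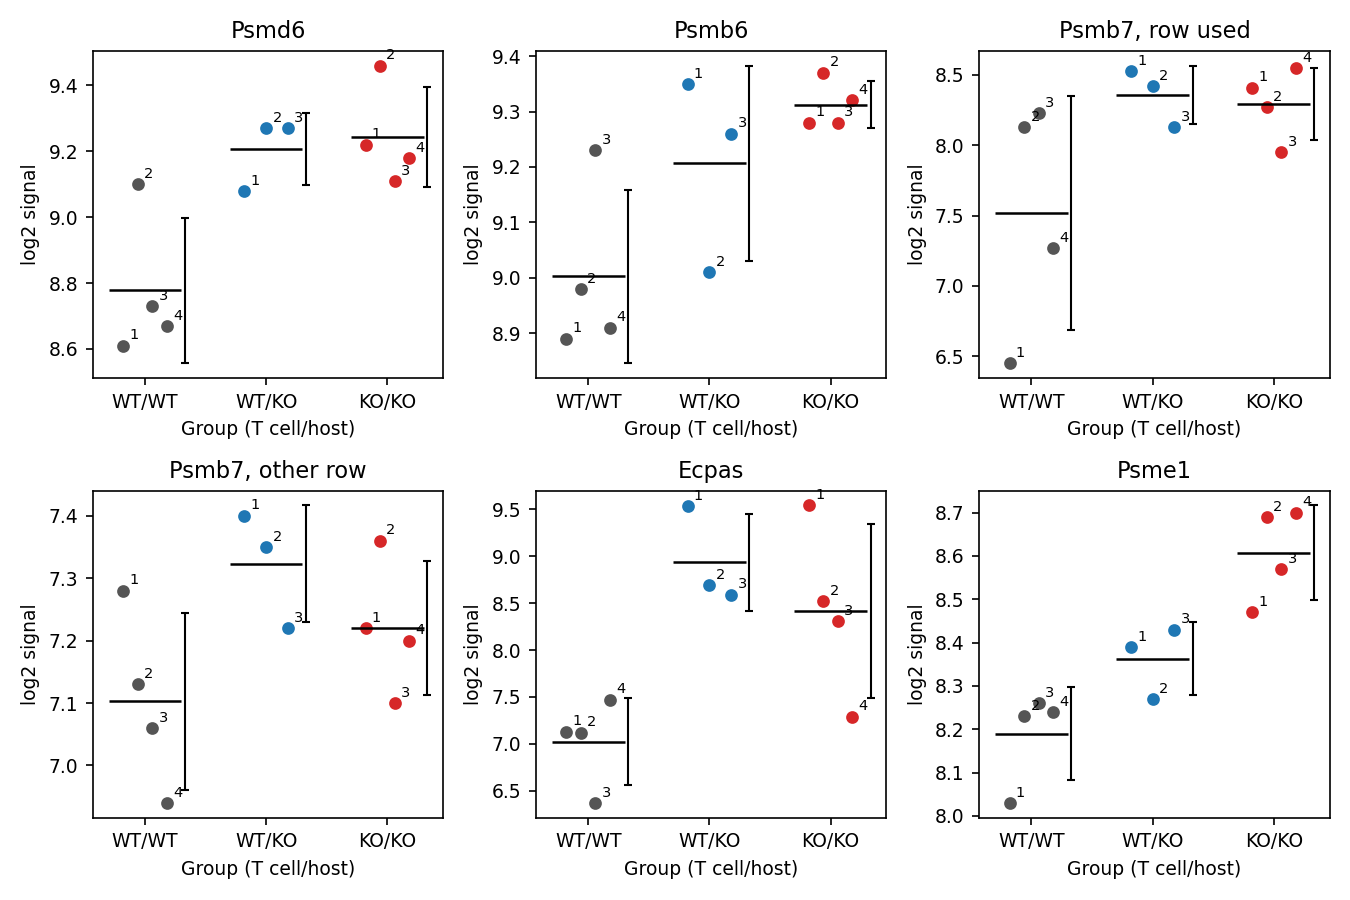
Log2 signal by group for Psmd6, Psmb6, both probe sets of Psmb7, and the companions Ecpas and Psme1. Points are arrays numbered by replicate, horizontal lines are group means and bars the SD (WT/WT n = 4, WT/KO n = 3, KO/KO n = 4), and each panel has its own log2 axis that does not start at 0. In the Psmb7 row used, WT/WT 1 and 4 stand at 6.45 and 7.27.

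All 6 ATPases of the base were higher than WT/WT in both comparisons, each time with a median of 0.12, and 5 of 6 were higher in KO/KO than in WT/KO (median 0.03). Psmc5 read 8.12, 8.26, 8.16 and 8.17 in WT/WT, 8.31, 8.38 and 8.28 in WT/KO and 8.21, 8.40, 8.62 and 8.57 in KO/KO. The WT/KO arrays lay just above WT/WT, and KO/KO 1 lay among the WT/WT values. Its differences were 0.15 (SE 0.12; limma adjusted p = 0.714) and 0.27 (SE 0.11; limma adjusted p = 0.558), and KO/KO minus WT/KO was 0.13 (SE 0.12; limma adjusted p = 1.0). The other ATPases were at 0.18 and 0.19 for Psmc1, 0.22 and 0.11 for Psmc2, 0.08 and 0.09 for Psmc3, 0.01 and 0.08 for Psmc4, and 0.10 and 0.14 for Psmc6, in WT/KO and KO/KO relative to WT/WT. No ATPase passed limma's adjusted p.

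Of the base subunits without ATPase activity, Psmd2 is a scaffold that binds ubiquitin-like domains and Psmd4 is a ubiquitin receptor. Psmd2 read 7.83, 7.98, 8.07 and 7.90 in WT/WT, 8.30, 8.08 and 8.08 in WT/KO and 7.96, 8.05, 7.74 and 8.29 in KO/KO. WT/KO lay above WT/WT in every array, the nearest being WT/WT 3, and KO/KO overlapped both groups. The difference in WT/KO was 0.21 (SE 0.14; limma adjusted p = 0.674), and KO/KO minus WT/KO was -0.14 (SE 0.14; limma adjusted p = 1.0). Psmd4 was at 0.09 in WT/KO and 0.09 in KO/KO relative to WT/WT.

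In the lid 8 of 8 members were higher in WT/KO (median 0.15) and 7 of 8 in KO/KO (median 0.10). Psmd6, a structural lid subunit, read 8.61, 9.10, 8.73 and 8.67 in WT/WT, 9.08, 9.27 and 9.27 in WT/KO and 9.22, 9.46, 9.11 and 9.18 in KO/KO. Of the WT/WT arrays 3 were below all others, and WT/WT 2 lay above WT/KO 1 and just below the lowest KO/KO array. Psmd6 had the lowest p of the list in both comparisons, with differences of 0.43 (SE 0.14; limma adjusted p = 0.637) and 0.47 (SE 0.13; limma adjusted p = 0.409). Without WT/WT 1 and 4 they were 0.29 and 0.33. Between T cell genotypes Psmd6 was at 0.04 (SE 0.14).

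Psmd13, another lid subunit, read 6.51, 6.96, 6.80 and 6.64 in WT/WT, 6.87, 6.59 and 6.98 in WT/KO and 6.65, 6.62, 6.69 and 6.77 in KO/KO. The KO/KO arrays lay within the span of the WT/WT arrays, with KO/KO minus WT/WT at -0.04 (SE 0.12) and KO/KO minus WT/KO at -0.13 (SE 0.13; limma adjusted p = 1.0). Psmd12 read 7.86, 8.07, 8.32 and 7.98 in WT/WT, 8.26, 8.38 and 8.24 in WT/KO and 8.27, 8.35, 8.20 and 8.54 in KO/KO. All but WT/WT 3 of the reference arrays were below both other groups, and the differences were 0.23 (SE 0.13; limma adjusted p = 0.667) and 0.29 (SE 0.12; limma adjusted p = 0.572). Psmd14, the deubiquitinase of the lid, was at 0.27 (SE 0.22) and 0.07 (SE 0.21), and its partner Psmd7 at 0.06 and 0.12. Psmd3 was at 0.04 and 0.03, Psmd8 at 0.10 and 0.18, and Psmd11 at 0.21 and 0.07.

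The base chaperones Psmd5, Psmd9 and Psmd10 escort the ATPases during assembly and are not part of the mature particle. All 3 were higher in WT/KO (median 0.35) and 2 of 3 in KO/KO (median 0.13). Psmd5, the member of lowest mean signal, read 5.12, 5.51, 5.74 and 5.13 in WT/WT, 5.48, 5.89 and 5.81 in WT/KO and 5.80, 6.03, 5.60 and 5.89 in KO/KO. WT/WT 1 and 4 were lowest and WT/WT 3 overlapped both groups. The differences were 0.35 (SE 0.17; limma adjusted p = 0.660) and 0.46 (SE 0.16; limma adjusted p = 0.491), and 0.10 and 0.21 without WT/WT 1 and 4.

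Psmd10, also known as gankyrin, read 6.46, 7.72, 6.75 and 6.81 in WT/WT, 7.42, 7.17 and 7.59 in WT/KO and 6.15, 7.36, 7.23 and 7.52 in KO/KO. KO/KO 1 was the lowest and WT/WT 2 the highest of all arrays. Its KO/KO minus WT/KO difference of -0.33 (SE 0.33; limma adjusted p = 1.0) was the lowest of the list, and without KO/KO 1 it was -0.02 (SE 0.27). Psmd9 read 6.75, 7.13, 6.80 and 6.58 in WT/WT, 7.01, 6.76 and 6.75 in WT/KO and 6.70, 6.82, 6.62 and 6.82 in KO/KO. The groups overlapped, with differences from WT/WT of 0.02 (SE 0.14) and -0.08 (SE 0.13). The second probe set of Psmd9, of mean log2 signal 4.87, was at 0.67 and 0.53.

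The pooled within-group SD ran from 0.10 for Psmd3 to 0.52 for Psmb7, with Psmd10 at 0.49 and Psmd14 at 0.32, and its median over members was 0.18 against 0.21 over all genes. Deviations from the group means correlated across the 11 arrays by 0.19 on average over the 465 pairs of members, 334 of them above 0. The same mean was 0.0187 over pairs of all genes and 0.00969 over pairs of the upper 50% by signal. The ATPases correlated with each other at 0.41 and with the base chaperones at 0.42, the lid subunits with each other at 0.08. Psmc1 and Psmc6 had the highest mean correlation with the other members, 0.39 each, and Psmd7 the lowest, -0.27. These correlations describe 11 arrays whose members share the array's value range and amplification.

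Of the 3 members without a row of their own, Psma4 shares a row with AY074887 (0.22 in WT/KO and 0.16 in KO/KO relative to WT/WT) and another with Ankhd1 and Eif4ebp3 (0.25 and 0.21). Psma5 shares 3 rows with its pseudogene Psma5-ps. The row of highest mean was at 0.30 and 0.33, and the others were at -0.17 and -0.04 and at -0.09 and 0.01. Psmd1 shares a row with Armc9, at 0.04 and -0.02. These rows cannot be assigned to 1 gene and were not tested.

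Catalytic replacement was followed as the difference between each interferon-induced subunit and the constitutive subunit whose place it takes. Psmb8 minus Psmb5 was higher by 0.19 (SE 0.17) in WT/KO than in WT/WT, lower by -0.04 (SE 0.20) in KO/KO than in WT/WT and lower by -0.22 (SE 0.13) in KO/KO than in WT/KO, with exact two-sided permutation p of 0.457, 0.857 and 0.229. Psmb9 minus Psmb6 moved by 0.04 (SE 0.23), -0.07 (SE 0.17) and -0.12 (SE 0.22) in the same order. Psmb10 minus Psmb7 was 2.26, 0.33, 0.06 and 1.52 in WT/WT, -0.00, 0.43 and 0.33 in WT/KO and 0.19, 0.27, 0.46 and 0.30 in KO/KO. WT/WT 1 and 4 stood apart from the 9 other arrays, and those arrays were the ones of low Psmb7 in the row used. The differences were -0.79 (SE 0.53) and -0.74 (SE 0.52) relative to WT/WT, both at p = 0.343 by exact two-sided permutation. Without WT/WT 1 they were -0.38 and -0.33. The second Psmb7 probe set, at 7.28 in WT/WT 1 and 6.94 in WT/WT 4, was not entered in this pair. Its own differences from WT/WT were 0.22 in WT/KO and 0.12 in KO/KO, against 0.84 and 0.78 in the row used. All 9 tests had an adjusted p of 0.857 by exact permutation, where 0.0286 is the smallest raw p the design allows.

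The immunoproteasome genes themselves did not pass. Psmb8 was at 0.28 (SE 0.16) in WT/KO and 0.03 (SE 0.15) in KO/KO relative to WT/WT, and each of its KO/KO arrays (8.16, 8.59, 8.41 and 8.57) was below each WT/KO array (8.67, 8.62 and 8.74), with a difference of -0.24 (SE 0.16; limma adjusted p = 1.0). Psmb9 was at 0.25 and 0.23, and Psmb10 at 0.06 and 0.04. Psme1, a subunit of the PA28 activator, read 8.03, 8.23, 8.26 and 8.24 in WT/WT, 8.39, 8.27 and 8.43 in WT/KO and 8.47, 8.69, 8.57 and 8.70 in KO/KO. The 3 groups did not overlap, with WT/WT lowest and KO/KO highest. KO/KO minus WT/WT was 0.42 (SE 0.10; limma adjusted p = 0.392), WT/KO minus WT/WT 0.18 (SE 0.11; limma adjusted p = 0.671) and KO/KO minus WT/KO 0.24 (SE 0.11; limma adjusted p = 1.0). Its partner Psme2 has no row of 1 gene.

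Other genes of the pathway were taken from lists of activators, inhibitors, assembly factors, transcription factors, deubiquitinases and shuttle factors. Together with the immunoproteasome genes, 29 were tested. By limma 0 passed the adjusted p in any comparison, and 23 of 29 (79.3%) were higher in WT/KO, 21 in KO/KO, and 16 in KO/KO against WT/KO, with medians of 0.10, 0.07 and 0.00. The shares of all genes higher were 45.5%, 46.7% and 53.2%. At an unadjusted p under 0.05, 2, 3 and 1 of the 29 were higher, beside 3.62%, 4.79% and 1.93% of all genes. Ecpas, an adaptor of the proteasome, read 7.13, 7.12, 6.37 and 7.47 in WT/WT, 9.53, 8.69 and 8.59 in WT/KO and 9.54, 8.52, 8.31 and 7.29 in KO/KO. All WT/KO arrays lay above WT/WT, and KO/KO 4 lay among the WT/WT values. The differences were 1.92 (SE 0.43; limma adjusted p = 0.592) and 1.39 (SE 0.40; limma adjusted p = 0.420). The second Ecpas probe set was at 0.20 and 0.24.

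Nfe2l1, the transcription factor known to raise proteasome genes when proteolysis is blocked, was at 0.11 (SE 0.13) in WT/KO and -0.12 (SE 0.12) in KO/KO relative to WT/WT. It read 7.37, 7.55, 7.63 and 7.43 in WT/WT, 7.57, 7.70 and 7.54 in WT/KO and 7.18, 7.40, 7.62 and 7.28 in KO/KO, with KO/KO 3 overlapping the other groups. Between T cell genotypes it was at -0.23 (SE 0.13; limma adjusted p = 1.0), the second lowest p among the companion genes in that comparison. Ngly1, which removes glycans from Nfe2l1, read 5.75, 5.83, 5.81 and 5.58 in WT/WT, 6.03, 6.05 and 5.99 in WT/KO and 6.10, 5.57, 5.84 and 5.88 in KO/KO. WT/KO lay above WT/WT throughout and KO/KO overlapped both. Its difference in WT/KO was 0.28 (SE 0.13; limma adjusted p = 0.654).

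Nfe2l1 binds antioxidant response elements, so the windows of 250 bases upstream of the transcription start of the members were searched for their core, TGACNNNGC, on both strands. RefSeq windows (GRCm38.p6) were found for 28 of 34 members, and 5 of 28 (17.9%) held the core against 11.5% of all 27025 genes with a window. They were Psmb5 (47 bases before the start), Psmb6 (9), Psmd9 (31), Psmc6 (227) and Psmd12 (247). A GC box, GGGCGG, was in 17 of 28 members (60.7%) against 35.4% of genes, and the letters CCAAT in 11 of 28 (39.3%) against 37.5%. The windows below show the catalytic genes Psmb5 and Psmb6 with the core in capitals, Psmd12 with a core on the opposite strand, and Psmd6, the member of lowest p, whose window holds none. They lie at chr14:54617996-54618245 (minus strand), chr11:70525107-70525356 (plus strand), chr11:107479278-107479527 (plus strand) and chr14:14120946-14121195 (minus strand), in that order of Psmb5, Psmb6, Psmd12 and Psmd6.
Psmb5: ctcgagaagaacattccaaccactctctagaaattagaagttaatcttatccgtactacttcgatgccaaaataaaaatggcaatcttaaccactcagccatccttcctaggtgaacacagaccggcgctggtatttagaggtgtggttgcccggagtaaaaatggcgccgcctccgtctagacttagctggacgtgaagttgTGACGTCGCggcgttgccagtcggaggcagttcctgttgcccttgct
Psmb6: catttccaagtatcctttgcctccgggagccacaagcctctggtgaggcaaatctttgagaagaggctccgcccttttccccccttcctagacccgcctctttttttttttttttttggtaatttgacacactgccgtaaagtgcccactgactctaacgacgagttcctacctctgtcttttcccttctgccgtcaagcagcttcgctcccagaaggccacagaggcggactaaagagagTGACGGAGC
Psmd12: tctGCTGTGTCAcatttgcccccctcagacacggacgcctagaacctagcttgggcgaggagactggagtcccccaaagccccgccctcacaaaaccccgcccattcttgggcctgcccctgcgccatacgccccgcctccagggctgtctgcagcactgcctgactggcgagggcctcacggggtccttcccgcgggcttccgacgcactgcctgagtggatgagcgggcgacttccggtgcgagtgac
Psmd6: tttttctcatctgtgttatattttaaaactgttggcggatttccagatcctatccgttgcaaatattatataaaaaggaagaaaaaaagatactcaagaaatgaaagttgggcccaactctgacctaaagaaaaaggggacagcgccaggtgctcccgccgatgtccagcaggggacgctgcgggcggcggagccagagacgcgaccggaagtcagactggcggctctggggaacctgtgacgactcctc
Of members with a row of their own and a window, 5 with the core had median differences of 0.10 in WT/KO, 0.14 in KO/KO and 0.05 between T cell genotypes, beside 0.14, 0.12 and -0.01 in the 20 without it. A match is a description of letters and not a bound site.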

How the data were processed

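RNA of sorted T cells was amplified and hybridised to microarrays, per the labels' protocols. The authors deposited log2 signals for 115830 rows and 11 arrays, with values from 1.27 to 14.4. RMA, Partek and the build mm9 are named per the submitters' processing notes, with versions not given in the sources used here. Values were not normalized again. The platform annotation names 1 gene in 25539 rows, several in 2300 and none here in 87991. For each of 20259 named genes the row of highest mean was used, and genes under the 25th percentile of those means (log2 4.33) were left out, which left 15194.

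All 11 arrays entered 1 limma fit (version 3.58.1, R 4.3.3) of 3 group means, with Benjamini-Hochberg adjustment over all genes tested at an adjusted p under 0.05 and 95% intervals. The pairwise correlation of arrays was 0.941 to 0.974, and the median SE of a difference was 0.15 to 0.16. The small number of arrays limits precision. The series calls the replicates biological but does not say whether an array is 1 mouse or a pool, and p-values reflect the spread among these arrays. Genes with known changes were simulated, 67 at a log2 change of 0.5 and 67 at 1. At 0.5, 14.9% were called in WT/KO against WT/WT, 14.9% in KO/KO against WT/WT and 13.4% in KO/KO against WT/KO. At 1 these shares were 77.6%, 73.1% and 76.1%, and false calls numbered 3, 5 and 2 in that order. Apart from Psmb7, all member differences were under 0.5 in size, so 0 members passing does not exclude differences of that size. For differences of paired subunits an exact permutation test (two-sided) was used.

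The members and lists were chosen with earlier results of these data known. Values in every array are given for Psmb5, Psmb6 and Psmb7, for the 3 members of lowest p in each direction of each comparison, and for the members of highest and lowest mean signal. Of the companion genes, the 2 of lowest p in each comparison and the immunoproteasome genes, Psme1, Psme2 and Nfe2l1 are named. Promoter windows come from RefSeq (GRCm38.p6) and were matched by symbol. Alternatives were quantile normalization, median centring, other filters, the mean of a gene's rows, an intensity trend, array weights, the value range as a covariate, a replicate block and leaving out arrays.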

Additional observations from a re-analysis of the deposited data

How the results depend on the processing

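Members past limma's adjusted p numbered 0 in all 3 comparisons under every setting run, while the counts of higher members varied. Over the 11 settings other than leaving out single arrays, 20 to 31 members were higher in WT/KO than in WT/WT (medians 0.03 to 0.15). In KO/KO 19 to 28 were higher than in WT/WT (medians 0.03 to 0.17), and 15 to 20 were higher than in WT/KO. With the value range as a covariate, 64.5% and 61.3% of members were higher than in WT/WT, beside 50.1% and 51.7% of all genes. With each array left out in turn, 25 to 30 members were higher in WT/KO and 23 to 28 in KO/KO than in WT/WT (medians 0.09 to 0.16 and 0.09 to 0.19), and 12 to 18 in KO/KO than in WT/KO (medians -0.03 to 0.03). Unadjusted p-values under 0.05 belonged to 2 members in WT/KO against WT/WT. That count was 4 after median centring, 0 with the value range as a covariate or without WT/WT 1 and 4, 1 without WT/WT 1 or without WT/WT 4, and 5 without WT/WT 3. In KO/KO against WT/WT the count of 6 became 3 after quantile normalization, 1 with the value range as a covariate, 0 without WT/WT 1 and 4, 1 without WT/WT 1 and 3 without KO/KO 4.

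The values showed no clear pairing of arrays by replicate number, and whether equal numbers mark a shared batch was not tested. Correlations of same-numbered arrays' deviations ran from -0.114 to 0.123 and of others from -0.243 to 0.182, and 3 of 11 arrays correlated best with an array of their own number. With the replicate number as a block, 26, 26 and 18 members were higher in the 3 comparisons, with medians of 0.11, 0.12 and 0.01, and 1 member had an unadjusted p under 0.05 in WT/KO against WT/WT.

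Signs turned for differences near 0, and the cause was not tested. Relative to WT/WT in WT/KO, median centring gave 0.01 for Psma1, 0.03 for Psma7 and 0.06 for Psmb2, and array weights gave 0.04 for Psma7. In KO/KO against WT/WT, Psmd13 was at 0.00 after median centring. Psmd9 was at 0.22 with the mean of its rows, where the row used was at -0.08 and the second row at 0.53. Between T cell genotypes, Psmb5 was at 0.03 after quantile normalization and Psmb7 at 0.03 with array weights. Leaving out single arrays gave ranges in WT/KO of -0.14 to 0.00 for Psma1, -0.22 to 0.11 for Psma7, -0.10 to 0.06 for Psmb2 and -0.00 to 0.20 for Psmb5. In KO/KO they were -0.16 to 0.03 for Psmd9, -0.12 to 0.03 for Psmd13 and -0.02 to 0.17 for Psmb5, and between T cell genotypes -0.10 to 0.04 for Psmb5 and -0.18 to 0.05 for Psmb7. For the pairs, Psmb8 minus Psmb5 ranged from -0.17 to 0.08 in KO/KO against WT/WT, and Psmb10 minus Psmb7 from -1.11 to -0.38 in WT/KO and from -1.06 to -0.33 in KO/KO against WT/WT, and from -0.08 to 0.14 between T cell genotypes. Psmb9 minus Psmb6 ranged from -0.14 to 0.16, from -0.20 to 0.02 and from -0.23 to 0.07 in the 3 comparisons. Between T cell genotypes, leaving out single arrays gave -0.48 to -0.02 for Psmd10, 0.12 to 0.34 for Psma2, 0.03 to 0.23 for Psmb3, -0.24 to -0.06 for Psmd2 and -0.24 to -0.05 for Psmd13.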
